A study of Mus musculus with 8 samples.

Results

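The 10 genes described here encode subunits of the transcription factor NF-κB and the IκB proteins that inhibit it. They are the canonical subunits Rela and Nfkb1, the non-canonical subunits Relb and Nfkb2, the cytoplasmic inhibitors Nfkbia, Nfkbib and Nfkbie, and the nuclear IκB proteins Bcl3, Nfkbiz and Nfkbid. They were taken by name from the 54532 genes of the count table, and each matched 1 Ensembl identifier. Expression was measured by bulk 3′ mRNA sequencing in 8 libraries of mouse intestinal organoids, which are epithelial structures grown in culture without stroma. Libraries came from 4 control organoid samples, to which the labels give no agent, and from 4 organoid samples treated with RANKL, the ligand of the receptor RANK. The labels give no genotype, age, dose or duration for these libraries. They also do not say whether the 4 samples of a group were separate cultures or animals, so p-values measure only the spread between these samples.

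NF-κB proteins act as dimers. In resting cells the canonical dimer of RelA and p50, the product of Nfkb1, is held in the cytoplasm by IκB proteins, and activation of the IKK complex leads to degradation of the inhibitor and release of the dimer. The paper names TRAF6 as a key adaptor by which RANK is linked to this canonical activation. RANK and several other receptors of the TNF receptor family also engage the non-canonical pathway. In it the kinase NIK accumulates, the Nfkb2 precursor p100 is processed to p52, and dimers of RelB and p52 enter the nucleus. Several subunit and inhibitor genes are themselves known NF-κB targets, and the product of Nfkbia closes a negative feedback loop.

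Total counts on genes ran from 583663 to 7807298 per library, and the deepest library was 13.4 times as deep as the shallowest. Depth differed between the groups, with a median total of 3911808 in control and 1613410 in RANKL libraries. Control replicate 4 and RANKL replicate 1 were the 2 shallowest libraries. Levels are given as CPM, a gene's count scaled to the library total, with library totals adjusted by the trimmed mean of M values (TMM). Each transcript was read near its 3′ end, so a level is not divided by gene length when genes are compared. All 10 members passed the filter on low counts, which left 9971 genes for testing. Nfkbie and Nfkbid, at most 1.52 and 4.56 CPM in any control library, reached the level it asks for in RANKL libraries only. They thus entered the test through the group where they are high, and their calls are not independent of that filter.

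RANKL-treated organoids had more mRNA of 9 of the 10 members than control organoids. The other member, Nfkbiz, did not pass the test, and no member fell. The 9 include Nfkbie and Nfkbid, which met the low-count filter through RANKL libraries only. By comparison, edgeR called 13.6% of all tested genes higher and 12.4% lower at an adjusted p below 0.05. The non-canonical subunits Nfkb2 and Relb rose 11.2-fold and 9.97-fold, and the inhibitors Nfkbie and Nfkbia 9.92-fold and 9.42-fold. The order of these 4 changed with the fit and was not tested. The log2 fold change of Nfkbie, for example, was 3.40 with DESeq2 against 3.32 for Relb, and 3.65 without control replicate 1 against 3.30 for Nfkb2. The canonical subunits Rela and Nfkb1 rose 1.83-fold and 1.70-fold. In the same 9 members the RANKL libraries were all above the control libraries, a separation found for 13.1% of all tested genes. The median log2 fold change was 2.56 over the members and 0.0 over all genes tested. In bulk RNA, a change in the number of cells of a type and a change of mRNA per cell cannot be told apart.

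**Figure D1:**
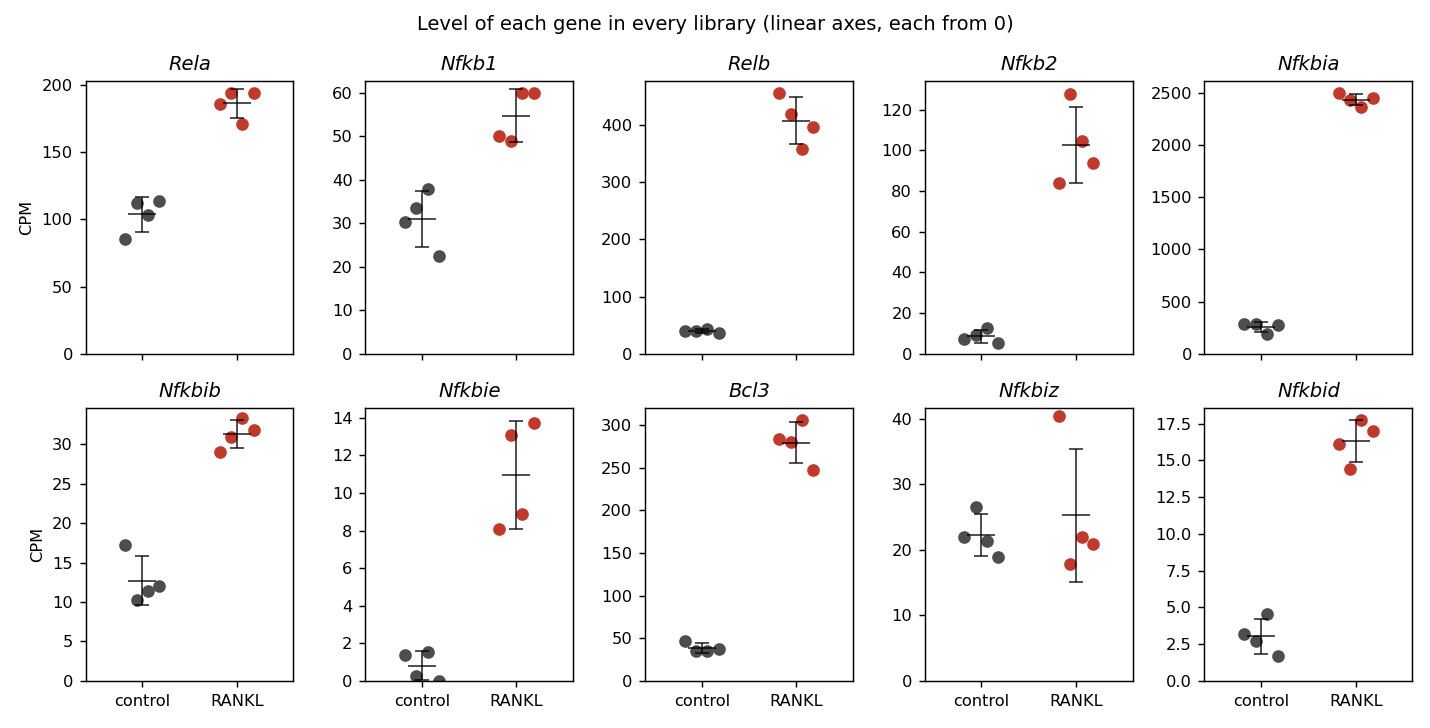
Each panel plots the level of 1 gene in CPM on a linear axis from 0, with 4 control libraries in grey and 4 RANKL libraries in red. Horizontal marks with bars show the mean ± SD. The groups are apart in 9 panels and overlap in the panel of Nfkbiz, where RANKL replicate 1 stands at 40.4 CPM.

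**Figure D2:**
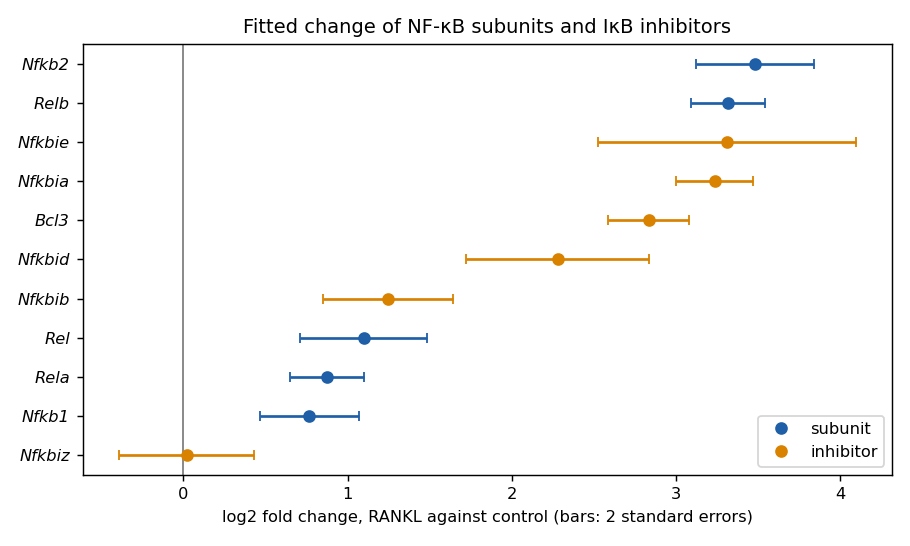
Points are the edgeR log2 fold changes of RANKL against control for the 10 members and Rel, and bars are 2 standard errors on each side. Subunits are blue and inhibitors orange. Nfkb2 is at 3.48, Rela at 0.87 and Nfkbiz at 0.02.

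Promoters are shown for the called members with the largest rises that had a RefSeq entry, and for Rela as the reference subunit. Of the 10 members, 7 had such an entry, and Relb, Nfkb1 and Nfkbiz are named only. Entries span 250 bases before to 50 bases after each RefSeq start on GRCm38.p6, and the members had 11 of them. Both strands were searched for the κB consensus, which occurred in 4.51% of 32851 promoter entries. They were also searched for the rarer motif GGGANTTNCC, which occurred in 1.20%. The consensus does not cover every site of this motif, which allows any base before the final CC where the consensus allows only C or T. Counted by gene, 5.14% of 27025 genes had the consensus in at least 1 entry and 1.38% the rarer motif. Nfkb2, Nfkbia, Nfkbie, Bcl3 and Nfkbid had a κB match in at least 1 entry, and all of these except Nfkbie also matched the rarer motif. Rela and Nfkbib had none in these windows. The upstream stretches that lie outside annotated exons are given 5′ to 3′ on the strand of the gene, with κB matches in capitals. They cover chr12:55492648-55492897 on the minus strand for Nfkbia, chr17:45555450-45555702 on the plus strand for Nfkbie and chr19:5637291-5637482 on the plus strand for Rela.
Nfkbia: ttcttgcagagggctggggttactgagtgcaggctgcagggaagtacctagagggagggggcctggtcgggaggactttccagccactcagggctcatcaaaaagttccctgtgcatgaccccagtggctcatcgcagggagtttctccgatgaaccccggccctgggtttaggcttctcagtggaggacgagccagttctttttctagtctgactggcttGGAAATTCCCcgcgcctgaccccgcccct
Nfkbie: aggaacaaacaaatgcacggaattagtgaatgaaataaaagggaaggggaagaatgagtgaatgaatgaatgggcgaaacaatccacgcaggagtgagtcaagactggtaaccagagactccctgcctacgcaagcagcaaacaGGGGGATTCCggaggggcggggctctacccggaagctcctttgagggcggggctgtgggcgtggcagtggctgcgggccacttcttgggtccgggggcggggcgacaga
Rela: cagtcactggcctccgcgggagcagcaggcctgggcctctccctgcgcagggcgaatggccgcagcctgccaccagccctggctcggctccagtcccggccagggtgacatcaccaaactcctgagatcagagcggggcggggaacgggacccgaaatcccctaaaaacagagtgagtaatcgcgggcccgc
Counted from the RefSeq start as position 0, the match of Nfkbia began at -29 and that of Nfkbie at -106. The matches of Nfkb2 and Bcl3 lie in annotated exons, so at most 30 bases around them are given. Nfkb2 had 5 distinct κB matches, some of them overlapping, of which the 2 that also match the rarer motif are shown. They lie in chr19:46304688-46304717 and chr19:46305695-46305724 on the plus strand, beginning at -39 from one RefSeq start and at 10 from the next. The single match of Bcl3 lies in chr7:19822734-19822763 on the minus strand.
Nfkb2, match at -39: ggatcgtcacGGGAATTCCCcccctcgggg
Nfkb2, match at 10: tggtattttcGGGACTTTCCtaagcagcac
Bcl3: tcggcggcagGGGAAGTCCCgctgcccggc
A match describes the letters of the window and was not tested for binding.

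Rela, which encodes the transactivating subunit of the canonical dimer, lies on the plus strand at chr19:5637483-5648130 (GRCm38). Its level was 85.6, 112, 103 and 114 CPM in control replicates 1 to 4 and 186, 194, 171 and 194 CPM in RANKL replicates 1 to 4. All RANKL libraries lay above all control libraries, and the spread within each group was small beside the gap. The mean was 103.5 ± 12.9 CPM in control and 186 ± 11.1 CPM in RANKL organoids (SD, n = 4 each). The log2 fold change was 0.87 with a standard error of 0.11 (edgeR adjusted p = 4.3e-07).

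Nfkb1 encodes the precursor p105, the source of p50, and lies on the minus strand at chr3:135584655-135691547. Control replicates 1 to 4 held 30.3, 33.5, 37.8 and 22.4 CPM of Nfkb1 and RANKL replicates 1 to 4 held 50.1, 48.9, 60.0 and 59.9 CPM. The groups did not overlap, and control replicate 4, with 13 counts, was the lowest of its group. In the edgeR fit, the log2 fold change was 0.77 with a standard error of 0.15 (edgeR adjusted p = 0.00025).

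Rel encodes c-Rel, the other subunit of the canonical class, and is not among the 10 members. It had 13.1, 13.7, 15.2 and 10.3 CPM in control and 22.6, 35.1, 25.0 and 31.9 CPM in RANKL replicates 1 to 4. The groups did not overlap, and the log2 fold change was 1.10 with a standard error of 0.19 (edgeR adjusted p = 6.1e-05).

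Relb encodes the partner of p52 in the non-canonical dimer and lies on the minus strand at chr7:19606217-19629438. In control replicates 1 to 4 its level was 40.4, 40.3, 42.6 and 36.1 CPM, and in RANKL replicates 1 to 4 it was 455, 419, 358 and 397 CPM. The 4 control libraries lay close together, with a coefficient of variation of 6.77%, and every RANKL library lay far above them. The mean rose from 39.8 ± 2.70 to 407.3 ± 40.7 CPM (SD, n = 4 each). The fitted log2 fold change was 3.32 with a standard error of 0.11 (edgeR adjusted p = 2.2e-20). Relb ranked 56 of 9971 tested genes by its rise.

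Nfkb2 encodes p100, which both inhibits RelB and gives rise to p52, and lies on the plus strand at chr19:46304320-46312385. Its exons overlap those of Psd and of AC114539.1 on the opposite strand, which strand-specific counting separates. Control replicates 1 to 4 held 7.51, 9.39, 12.7 and 5.16 CPM of Nfkb2, the last from 3 counts in the shallowest library. RANKL replicates 1 to 4 held 84.0, 128.0, 105 and 93.9 CPM. The lowest RANKL library was thus well above the highest control library. The mean was 8.68 ± 3.17 against 102.7 ± 18.9 CPM (SD, n = 4 each), and the log2 fold change of 3.48 with a standard error of 0.18 (edgeR adjusted p = 6.5e-16) ranked 50 of 9971 genes.

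The difference between the subunit classes was tested within libraries, as the ratio of a non-canonical to the corresponding canonical gene. The ratio of Relb to Rela was 0.472, 0.359, 0.414 and 0.318 in control and 2.45, 2.16, 2.10 and 2.04 in RANKL replicates 1 to 4. The ratio of Nfkb2 to Nfkb1 was 0.248, 0.280, 0.336 and 0.231 in control and 1.68, 2.62, 1.75 and 1.57 in RANKL replicates 1 to 4. Both ratios were below 1 in every control library and above 1 in every RANKL library. With 0.5 CPM added to each level, the log2 ratio was higher by 2.49 for Relb to Rela and by 2.71 for Nfkb2 to Nfkb1. Each gave p = 0.0286 in an exact two-sided permutation test over 70 assignments, the smallest p that 4 against 4 libraries allow, and 0.0286 after Benjamini-Hochberg adjustment over 3 ratios.

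**Figure D3:**
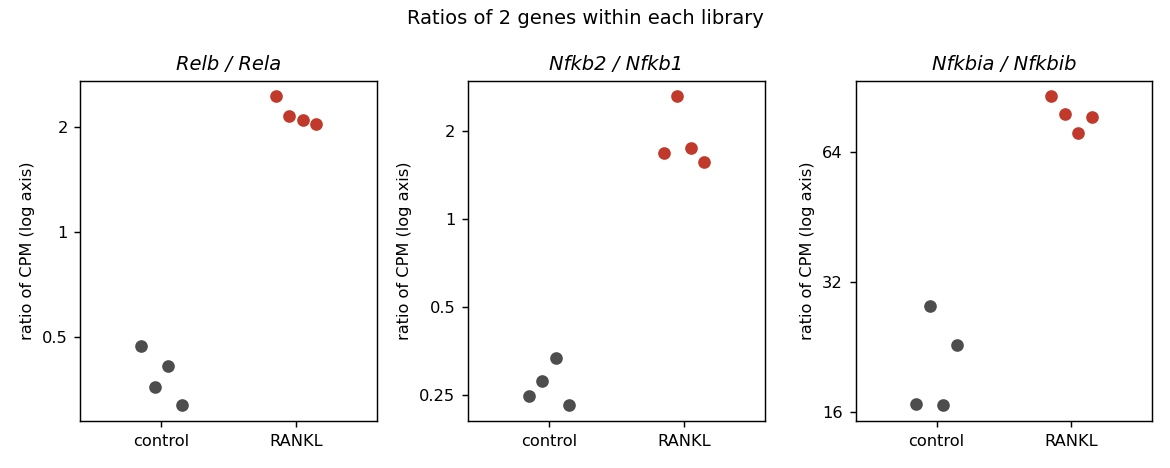
Each point is the ratio of the CPM of 2 genes in 1 library, on a log axis, with control in grey and RANKL in red. The Relb to Rela and Nfkb2 to Nfkb1 ratios lie below 1 in all control libraries and above 1 in all RANKL libraries.

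The summed level of the 5 subunit genes, Rel included, was 196.1 ± 16.7 CPM in control and 779.4 ± 45.2 CPM in RANKL organoids (SD, n = 4 each), 3.97 times as high. Rela was the most abundant subunit mRNA in every control library, with 48.4 to 60.6% of the sum, and had 23.3 to 25.0% in RANKL libraries. Relb had 19.3 to 22.8% in control and 49.9 to 57.1% in RANKL libraries, and so was the most abundant in every RANKL library. Nfkb2 went from a mean share of 4.37 ± 1.33% to 13.2 ± 2.28%, and Nfkb1 from 15.8 ± 2.66% to 7.06 ± 1.15% (SD, n = 4 each). The shares of Rela and Nfkb1 were thus lower although their own levels rose. Relb and Nfkb2 together held 0.330 ± 0.0405 times the summed level of Rela, Nfkb1 and Rel in control and 1.90 ± 0.164 times in RANKL organoids.

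**Figure D4:**
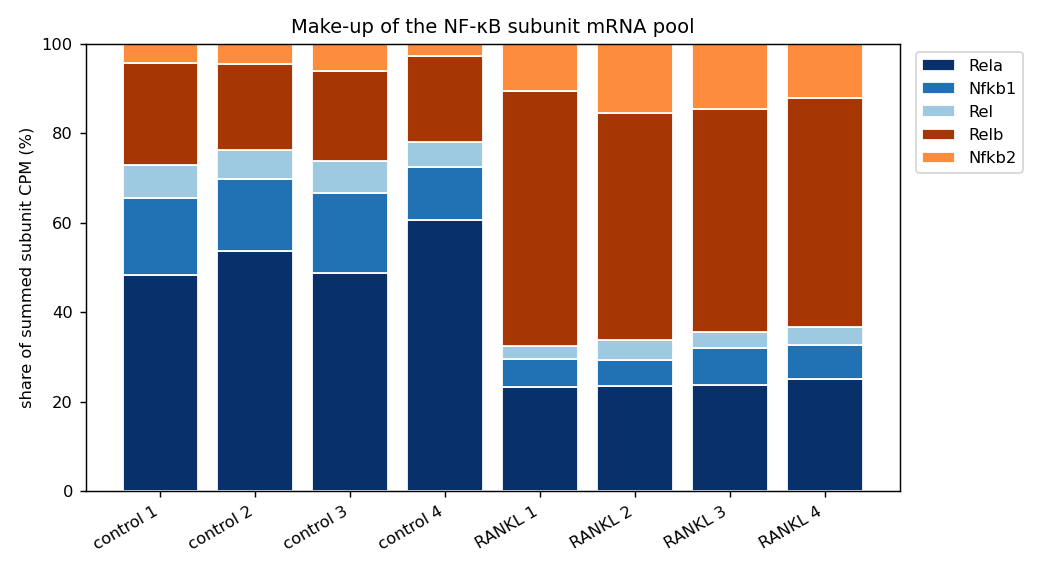
Each bar is 1 library, divided into the percent of the summed CPM of 5 subunit genes. Blue shades are the canonical genes Rela, Nfkb1 and Rel, and orange shades the non-canonical genes Relb and Nfkb2, which take the larger part of all 4 RANKL bars.

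Among the cytoplasmic inhibitors, Nfkbia, which encodes IκBα, had the highest level. It lies on the minus strand at chr12:55489410-55492647, and the κB match of its printed promoter stretch is the one nearest to the start among the matches outside exons. Its level was 287, 288, 189 and 275 CPM in control replicates 1 to 4 and 2499, 2432, 2366 and 2450.0 CPM in RANKL replicates 1 to 4. Control replicate 3 was lower than the other control libraries, whereas the RANKL libraries lay close together, with a coefficient of variation of 2.27% against 18.2% in control. The mean rose from 259.6 ± 47.4 to 2436 ± 55.2 CPM (SD, n = 4 each). On the log2 scale the fold change was 3.24 with a standard error of 0.12 (edgeR adjusted p = 8.8e-20).

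Nfkbib encodes IκBβ and lies on the minus strand at chr7:28758251-28767512, where exons of Ccer2 and Sirt2 overlap it on the opposite strand. It was measured at 17.2, 10.2, 11.4 and 12.0 CPM in control and at 29.1, 31.0, 33.4 and 31.9 CPM in RANKL replicates 1 to 4. The groups were apart, with control replicate 1 the highest of its group. The log2 fold change was 1.25 with a standard error of 0.20 (edgeR adjusted p = 1.3e-05). Nfkbia rose more than Nfkbib: their ratio was 16.7, 28.2, 16.6 and 22.9 in control and 86.0, 78.5, 70.9 and 76.9 in RANKL replicates 1 to 4, a log2 difference of 1.96. The exact two-sided permutation test gave p = 0.0286, and 0.0286 after adjustment over the 3 ratios.

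Nfkbie, encoding IκBε, lies on the plus strand at chr17:45555703-45563169 and had the lowest level of the members in both groups. It was at 1.40, 0.268, 1.52 and 0 CPM in control replicates 1 to 4, from 18 counts in all, and at 8.07, 13.1, 8.87 and 13.7 CPM in RANKL replicates 1 to 4, from 66 counts. The 0 counts in control replicate 4 allow up to 3 counts, or 5.14 CPM, a bound on counting error that does not cover PCR copies. That bound was below the lowest RANKL value, 8.07 CPM in RANKL replicate 1. This value came from 5 counts in a library where 1 count is 1.63 CPM. Its own counting error was not bounded, so the comparison does not show how safe the separation is. In the edgeR fit, the log2 fold change was 3.31 with a standard error of 0.39 (edgeR adjusted p = 8.8e-08), the widest error of the 10 members.

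The nuclear IκB proteins bind NF-κB at chromatin and can activate or repress it. Bcl3 binds homodimers of p50 and p52 and lies on the minus strand at chr7:19808462-19822770, overlapped on the opposite strand by exons of Gm16175. Its level was 46.3, 34.6, 34.97 and 37.8 CPM in control and 284, 280.1, 306 and 247 CPM in RANKL replicates 1 to 4. The groups were far apart. The mean was 38.4 ± 5.46 against 279.4 ± 24.3 CPM (SD, n = 4 each). The fitted log2 fold change was 2.83 with a standard error of 0.12 (edgeR adjusted p = 8.5e-18).

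Nfkbid encodes IκBNS and lies on the plus strand at chr7:30421732-30428746. Control replicates 1 to 4 held 3.18, 2.68, 4.56 and 1.72 CPM, the last from 1 count, and RANKL replicates 1 to 4 held 16.1, 14.4, 17.7 and 17.0 CPM. All RANKL libraries lay above the control libraries within a narrow range. On the log2 scale the fold change was 2.28 with a standard error of 0.28 (edgeR adjusted p = 1.6e-07).

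Nfkbiz encodes IκBζ, a coactivator of a set of secondary NF-κB response genes, and lies on the minus strand at chr16:55811375-55838899. It had 22.0, 26.6, 21.3 and 18.9 CPM in control and 40.4, 17.9, 21.9 and 20.9 CPM in RANKL replicates 1 to 4. The groups overlapped: RANKL replicate 1, with 25 counts in the shallowest library of its group, was the highest of all 8, and the other 3 RANKL libraries lay within or below the control range. The log2 fold change was 0.02, with an interval of 2 standard errors from -0.39 to 0.43 (edgeR adjusted p = 0.96, exact permutation p = 0.857). This interval does not reach the log2 fold change of any other member. Without RANKL replicate 1 the log2 fold change was -0.16 (edgeR adjusted p = 0.6).

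The 6 inhibitor genes summed to 336.8 ± 50.9 CPM in control and 2800.0 ± 53.5 CPM in RANKL organoids (SD, n = 4 each), 8.31 times as high. This sum includes the nuclear IκB genes, whose proteins can also activate NF-κB. The cytoplasmic inhibitors Nfkbia, Nfkbib and Nfkbie alone summed to 273.1 ± 48.0 CPM in control and 2479 ± 53.6 CPM in RANKL organoids, 9.08 times as high. Nfkbia made up 71.9 to 79.6% of the sum of all 6 genes in control and 85.9 to 88.1% in RANKL libraries. Nfkbiz had a mean share of 6.69 ± 1.24% in control and 0.898 ± 0.343% in RANKL organoids (SD, n = 4 each), while its own level did not pass the test. The summed level of all 6 genes per summed subunit level was 2.13, 1.73, 1.25 and 1.84 in control and 3.61, 3.38, 3.83 and 3.58 in RANKL replicates 1 to 4, without overlap. Nfkb2 counts as a subunit in this ratio, although p100 also inhibits RelB. The ratio is therefore one of mRNA sums and not a measure of inhibition. In control organoids the order of the levels was Nfkbia, Rela, Relb, Bcl3, Nfkb1, Nfkbiz, Nfkbib, Nfkb2, Nfkbid and Nfkbie. The ranges of neighbours from Relb to Nfkbiz overlapped, as did those of Nfkbib and Nfkb2. In RANKL organoids the order was Nfkbia, Relb, Bcl3, Rela, Nfkb2, Nfkb1, Nfkbib, Nfkbiz, Nfkbid and Nfkbie, with an overlap between neighbours for Nfkbib and Nfkbiz.

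Other genes of the pathway were read from 4 lists. Of 18 listed genes of the IKK complex, its kinases and TRAF adaptors, 16 were tested, 8 rose and 1 fell, with a median log2 fold change of 0.33. These are 50.0% and 6.25% of the tested genes, beside 13.6% higher and 12.4% lower over all genes. Birc3, which encodes the ubiquitin ligase cIAP2, went from 10.8 ± 2.85 to 45.0 ± 1.64 CPM (log2 fold change 2.20, edgeR adjusted p = 1.4e-10). Map3k14, encoding the non-canonical kinase NIK, went from 10.4 ± 5.59 to 40.7 ± 6.52 CPM (log2 fold change 1.73, edgeR adjusted p = 1.8e-07). Traf3, part of the complex that degrades NIK, and Ikbke, an IKK-related kinase, had log2 fold changes of 1.07 and 1.06 (edgeR adjusted p = 2e-06 and 3.3e-05). Of the IKK complex itself, Ikbkb rose by 0.45 on the log2 scale (edgeR adjusted p = 0.0054), whereas Chuk and Ikbkg were at 0.01 and 0.07 (edgeR adjusted p = 0.98 and 0.81). Tab2, an adaptor of the kinase TAK1, fell by 0.34 on the log2 scale (edgeR adjusted p = 0.027). Its call was lost without RANKL replicate 1 (edgeR adjusted p = 0.069), without RANKL replicate 4 (0.091) and without the 2 shallowest libraries (0.087).

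Among 15 listed ubiquitin regulators, 14 were tested, 3 rose and 1 fell, 21.4% and 7.14% of those tested beside 13.6% and 12.4% of all genes, with a median of 0.08. The deubiquitinase gene Tnfaip3, encoding A20, had a log2 fold change of 3.05, its partner Tnip1 of 1.68 and the deubiquitinase Cyld of 0.86 (edgeR adjusted p = 2.3e-08, 1e-13 and 2.4e-06). Tax1bp1 fell by 0.32 on the log2 scale (edgeR adjusted p = 0.015), but no longer passed when RANKL replicate 2 was left out (adjusted p = 0.072) or the 2 shallowest libraries were left out (adjusted p = 0.064). Of 21 genes for degradation, processing and other direct regulation of subunits or IκB proteins, 20 were tested, 3 rose and 0 fell, with a median of -0.03. The 15% that rose are close to the 13.6% of all genes, so the count does not set the list apart. The genes were the gankyrin gene Psmd10 with 0.82, the ubiquitin ligase subunit Fbxw11 with 0.63 and Akirin2 with 0.58 (edgeR adjusted p = 1.8e-06, 0.00076 and 0.0073). Of 12 coactivators and chromatin partners, all tested, 1 rose, the coactivator Ncoa3 with 0.79 (edgeR adjusted p = 0.00057), which is 8.33% of the list beside 13.6% of all genes, with a median of -0.01.

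The genes most like 3 of the members over the 8 libraries were sought among 9920 genes by the Pearson correlation r of log2 levels with 0.5 CPM added. Relb was nearest to the transcription factor gene Irf1 (r = 0.999), which went from 44.9 ± 1.48 to 138.0 ± 7.60 CPM, the adhesion molecule gene Icam1 (r = 0.999), at 0 counts in all control libraries and 29.5 ± 4.64 CPM with RANKL, and the NADPH oxidase subunit gene Cyba (r = 0.998). Nfkb2 was nearest to 4930402H24Rik, Megf6 and Stx11 (r = 0.995, 0.994 and 0.992). Nfkbia was nearest to the M cell transcription factor gene Spib (r = 0.999), Id2 (r = 0.998) and Nectin2 (r = 0.998). These correlations describe 8 libraries that fall into the 2 treatment groups, and any gene that differs strongly between groups with little spread within them scores high.

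Markers of cell types were read beside the members. The 6 epithelial markers were all expressed, and their summed level was 5298 to 6163 CPM in control and 5360 to 5828 CPM in RANKL libraries, most of it from Cdh1. Of these markers 0 rose and 1 fell, the keratin gene Krt18, from 638.2 ± 50.8 to 393.6 ± 19.9 CPM (log2 fold change -0.70, edgeR adjusted p = 9.4e-07). Of 8 markers of M cells, the antigen-sampling epithelial cells that RANKL is known to induce, 7 were tested and all rose. Their sum went from 54.1 to 60.6 CPM in control to 1876 to 2132 CPM in RANKL libraries, of which Spib alone had 1607 ± 124 CPM (SD, n = 4), and Gp2, a marker of mature M cells, was at 0 in all libraries. The 8 leukocyte markers summed to 3.44 to 10.2 CPM in control and 4.82 to 9.91 CPM in RANKL libraries, with Cd3e, Cd79a and Ms4a1 at 0. The 5 endothelial markers summed to 0.760 to 3.44 CPM in control and 0 to 1.61 CPM in RANKL libraries, with Cdh5, Kdr and Tie1 at 0. The 7 fibroblast markers summed to 3.80 to 8.60 CPM in control and 17.9 to 25.0 CPM in RANKL libraries. Of these markers only Pdgfrb passed the low-count filter, and it rose (log2 fold change 2.53, edgeR adjusted p = 7e-08). Pdgfrb had 3.87 ± 1.63 CPM of the sum in control and 19.0 ± 2.99 CPM with RANKL, while Dcn was at 0. The part of the M cell and Pdgfrb signals in the rise of the members was not tested.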

How the data were processed

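The 8 libraries were made with a QuantSeq forward 3′ mRNA kit and sequenced as single reads of 50 bases. The authors trimmed and filtered the reads, aligned them to GRCm38 with STAR and counted them per Ensembl gene with featureCounts, using the strand. They deposited the raw counts without normalization, and the authors' own tests used DESeq2. Of 54532 gene identifiers, 54409 matched a name, and the others held 0.0193% of the counts. Groups and replicate numbers came from the sample labels.

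Counts were fitted with edgeR 4.0.16 in R 4.3.3 (TMM scaling, its filter on low counts, quasi-likelihood test), with Benjamini-Hochberg adjustment over 9971 genes and a threshold of 0.05, which called 2587 genes. The standard error is the log2 fold change divided by the square root of F. On simulated data with 200 of 10015 genes changed, edgeR recovered 182 and called 6 unchanged genes. With no gene changed it called 0. The simulation gave every gene the same dispersion and changed no genes of low level, so these rates need not hold for the real libraries. Ratios were tested by exact permutation. Alternatives were DESeq2 1.42.0 size factors, library totals, other count filters, the DESeq2 Wald test, limma-voom (limma 3.58.1), the replicate number as a block, an adjusted p of 0.01, another pseudocount of 2 CPM, each library left out in turn and the 2 shallowest left out together.

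Gene positions come from GENCODE M21 and promoter windows from RefSeq, both on GRCm38. Protein sequences were not used here. The members and the gene lists were chosen with earlier results of these data known. Named genes are the members, Rel, up to 4 called genes per list with the largest change and a mean of 5 CPM or more, and the 3 genes most like each of Relb, Nfkb2 and Nfkbia. Ikbkb, Chuk, Ikbkg and Tab2 are outside that rule and were chosen after their values were seen.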

Additional observations from a re-analysis of the deposited data

Results flagged for a closer look

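In control organoids the lowest level of Nfkbia was 189.1 CPM, in control replicate 3, and the next was 275.2 CPM. The gap between them was 0.873 of the range of the group, more than Dixon's test allows for 4 samples. This was 1 of 22 groups of 4 libraries examined, and chance flags about 1 in 20. The log2 fold change of Nfkbia stayed between 3.10 and 3.30 when each library was left out in turn, and the call was kept each time.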

How the results depend on the processing

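Of the members, 9 were called under each alternative tried, including an adjusted p of 0.01 that was added after the data were seen, except at least 10 counts in every library, which left 6 members to test and 5 called. All genes called numbered 2587, 1636 at an adjusted p of 0.01, and 1853 to 2601 with each library left out in turn. Nfkbiz changed sign without passing the threshold, at -0.024 with no filter on low counts, -0.029 with limma-voom, -0.19 without the 2 shallowest libraries, and between -0.16 and 0.14 with single libraries left out. Near 0 and never called, Chuk was at -0.035 with no filter, -0.0059 with DESeq2, -0.045 with the replicate block and -0.067 to 0.068 with single libraries left out, where Ikbkg ran from -0.0036 to 0.17. Of 423 values of named genes under alternatives, 403 kept direction and call, 5 lost the call, all of Tax1bp1 or Tab2, and 15 changed sign, all of Nfkbiz, Chuk or Ikbkg. Same-numbered libraries showed little common deviation (correlations from -0.0325 to 0.0989, with 2 of 4 control replicates closest to their own number). The labels do not say whether equal numbers mark paired samples, and correlations this near 0 cannot decide it. With the replicate block, the log2 ratio differences were the same 2.49 for Relb to Rela, 2.71 for Nfkb2 to Nfkb1 and 1.96 for Nfkbia to Nfkbib, at an exact sign-flip p of 0.125, the smallest that 4 pairs allow. The 2 shallowest libraries limit Nfkbie, Nfkbid and Nfkb2, which had 0, 1 and 3 counts in control replicate 4.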
